A study of Homo sapiens with 36 samples.

Results

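The messages described here encode the proteins of the cytosolic ribosome, read in the RNA that was recovered with antibodies to the 3 cytoplasmic YTHDF proteins. Members were taken by name: protein-coding genes whose symbol is RPL or RPS with a number (with the usual A, X, L or Y endings), RPLP0, RPLP1, RPLP2 or RPSA, and whose mean count over the 9 input libraries reached 10. This gave 85 of the 60676 genes counted, 53 of the large subunit and 32 of the small subunit, out of 87 matched by name; the other 2 had too few input counts. All 85 were among the 31850 genes tested. The name rule also takes 8 paralogs (RPL3L, RPL7L1, RPL10L, RPL22L1, RPL26L1, RPL36AL, RPL39L and RPS27L) and does not take FAU and RACK1, which are reported separately.

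The cells were HEK293T, a human embryonic kidney line, in 3 lines, each with its own fusion: YTHDF1-ADAR, YTHDF2-ADAR or else YTHDF3-ADAR. ADAR changes adenosine to inosine, so a fusion of ADAR to an RNA-binding protein leaves edited bases on the RNAs that it meets. Every group, inputs included, carried a fusion and had been treated with doxycycline at 1 ug/mL for 24 h, and no group without a fusion entered the comparisons. From each line came an input, which is RNA from a part of the lysate, and 3 RNA immunoprecipitations (RIP), in which antibodies raised against YTHDF1, against YTHDF2 and against YTHDF3 pulled down the endogenous protein with its RNA, with 3 libraries in each of the 12 groups and 36 in all. Whether an antibody also recovered the fusion that carries its own target was not tested. The labels do not say that the 3 libraries of a group are separate cultures, so the p-values speak of the spread among these libraries. Inputs carried the fusion partner of their label at the highest level of the 3 lines: YTHDF1 stood at 634 ± 97.4 CPM (read counts scaled to a common library size by TMM; SD, n = 3) in YTHDF1-ADAR cells against 87.9 ± 2.03 and 94.0 ± 5.10 in the other lines, YTHDF2 at 321 ± 2.25 in YTHDF2-ADAR cells against 154 ± 22.7 and 197 ± 6.78, and YTHDF3 at 123 ± 14.6 in YTHDF3-ADAR cells against 52.8 ± 5.99 and 54.8 ± 8.83.

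Library totals ran from 12.5 to 37.5 M counts. Of these, 6 stood apart: the YTHDF1 RIP libraries from YTHDF2-ADAR cells and from YTHDF3-ADAR cells. They had 12.5 to 16.3 M counts, snoRNA genes took 0.696% to 4.35% of their counts against 0.0360% to 0.564% in the other 30, and protein-coding genes 54.1% to 74.2% against 71.5% to 92.4%. YTHDF1 RIP averages use them, so values of YTHDF1-ADAR cells alone stand beside the counts and the members described below. These compare libraries of that line only. They come from the same fit, so the 6 libraries still entered its scaling, gene filter, spread and adjusted p-values. Where the 6 were left out of the fit, the text says so.

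A ribosome holds one copy of most of its proteins, and cells keep the messages of both subunits at matched supply. These messages are short, abundant and stable. Most of them start with a 5′ terminal oligopyrimidine (TOP) tract, a C at the cap followed by a run of C and T, through which the mTOR pathway and the protein LARP1 set how much of the message is translated. YTHDF1, YTHDF2 and YTHDF3 bind N6-methyladenosine (m6A), a base mark that lies mostly near stop codons and in long exons, and messages of ribosomal proteins are generally described as poor in it.

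The first bases of some of these messages are shown because the tract is the feature they share. Each line gives the window from 10 bases before to 20 bases from the annotated start, with the unbroken run of C and T that begins with a C at the start in capitals; a sequence with no capitals has no such run. For a gene with several annotated starts, a start with a tract as counted below was shown where there was any, otherwise the start listed first. The sequences come from RefSeq on GRCh38.p14. The first 3 had the lowest fold changes in YTHDF1 RIP after RPL10L, the next 4 are among those that fell least in at least one RIP, and the last 6 are paralog pairs.
RPS21 (chr20:62387093-62387122, plus strand): ctagctgcttCCTTTCTCTCTCgcgcgcgg
RPL39 (chrX:119791611-119791640, minus strand): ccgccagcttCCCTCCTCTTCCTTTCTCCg
RPS13 (chr11:17077648-17077677, minus strand): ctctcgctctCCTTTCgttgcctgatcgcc
RPS24 (chr10:78033853-78033882, plus strand): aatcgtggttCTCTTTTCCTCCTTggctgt
RPL3 (chr22:39319604-39319633, minus strand): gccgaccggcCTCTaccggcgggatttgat
RPL7L1 (chr6:42879606-42879635, plus strand): gtgcggcgccgtagctaggagcggacgcca
RPL41 (chr12:56116623-56116652, plus strand): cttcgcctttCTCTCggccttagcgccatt
RPL22 (chr1:6199576-6199605, minus strand): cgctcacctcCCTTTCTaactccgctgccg
RPL22L1 (chr3:170870176-170870205, minus strand): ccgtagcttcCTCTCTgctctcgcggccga
RPS27 (chr1:153990752-153990781, plus strand): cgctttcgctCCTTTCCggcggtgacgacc
RPS27L (chr15:63157458-63157487, minus strand): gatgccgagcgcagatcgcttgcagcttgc
RPL36A (chrX:101391001-101391030, plus strand): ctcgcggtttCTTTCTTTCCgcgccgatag
RPL36AL (chr14:49620607-49620636, minus strand): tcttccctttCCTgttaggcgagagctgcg

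A start tract, counted here as a C at the annotated start and at least 4 more C or T on the strand of the gene, was found in 47 of the 68 members with a start sequence (69.1%), against 1404 of 27305 genes in all (5.14%). It was about as common in the large subunit (29 of 43, 67.4%) as in the small subunit (18 of 25, 72%), and 1 of 6 paralogs had one, RPL22L1. RPS27L and RPL7L1 have no run at the annotated start shown, and RPL36AL and RPL3 have runs of 3 and 4 bases, below the limit. The count rests on annotated starts. A gene with several was counted if any of them had a tract, among members and all genes alike. RPL10A, RPL9 and RPS28 were counted as without a tract, though a run of C and T begins a few bases after an annotated start.

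Nearly all ribosomal protein messages fell in each RIP against input, and no member was called higher in a RIP on average over the lines (44.7%, 17.9% and 21.7% of all genes were in the YTHDF1, YTHDF2 and YTHDF3 RIP). Together they made up 3.86 ± 0.559% (SD, n = 9) of counts in inputs, 1.34 ± 0.265% in YTHDF1 RIP, 1.94 ± 0.551% in YTHDF2 RIP and 1.47 ± 0.284% in YTHDF3 RIP. The 27 RIP libraries lay between 0.915% and 2.85% and the 9 inputs between 2.88% and 4.47%, so the groups did not overlap. These are bulk libraries, in which low recovery from all cells and from some cells only cannot be told apart. A low share in a RIP describes what was recovered with the antibody, not the level of the message in the cells. A fold change in RIP is relative to the other RNA of that library after TMM scaling, which sets the typical gene near 0.

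In YTHDF1 RIP 85 of 85 members were called lower, meaning an adjusted p under 0.05 (edgeR quasi-likelihood test, Benjamini-Hochberg over all genes tested), against 32.4% of all genes called lower. In YTHDF2 RIP it was 82 members against 21.8% of all genes, and in YTHDF3 RIP 82 against 26.1%. The fall was 2-fold or more in 78, 69 and 77 members. The share of all genes with such a fall is not given here, so these counts describe the members only. Compared by library, the highest of 9 RIP values lay below the lowest of 9 inputs for 66 members in YTHDF1 RIP, 52 in YTHDF2 RIP and 70 in YTHDF3 RIP, as for 12.9%, 4.75% and 8.51% of all genes, and no member's RIP values all lay above its inputs. The 3 comparisons share their inputs. Scaled to the 13 mitochondrially encoded mRNAs in place of TMM, 85, 73 and 73 members were lower, against 56.7%, 5.73% and 8.03% of all genes. That reference was itself uneven. It took 1.53 ± 0.569% (SD, n = 9) of counts in inputs, with a range of 0.663% to 2.58%. In the YTHDF1, YTHDF2 and YTHDF3 RIP it took 4.30 ± 2.02%, 1.43 ± 0.459% and 1.29 ± 0.511%. For YTHDF1-ADAR cells alone the YTHDF1 RIP count was 74. Of the 33 members picked by rule for that RIP, 26 kept their direction and call there.

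The median of the small subunit messages lay below that of the large subunit messages in each RIP. No test was made of this difference, since it is a score over the members. The median log2 fold change of large and small subunit members was −1.76 and −2.48 in YTHDF1 RIP, where the median of all genes was 0.25. It was −1.37 and −1.83 in YTHDF2 RIP and −2.09 and −2.41 in YTHDF3 RIP, where the medians of all genes were −0.02 and −0.01. In YTHDF1-ADAR cells alone the YTHDF1 RIP medians were −1.71 and −2.43, where the median of all genes was −0.28. Set against all genes, the members thus fell less there than in the YTHDF1 RIP average. The difference between the subunits was therefore 0.72, 0.46 and 0.32 on the log2 scale, and 0.69, 0.42 and 0.37 with the paralogs left out. The ranges of the subunits overlapped: 11 of 53 large subunit members lay below the small subunit median in YTHDF1 RIP, 13 in YTHDF2 RIP and 15 in YTHDF3 RIP, while 7, 11 and 10 of 32 small subunit members lay above the large subunit median.

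**Figure D1:**
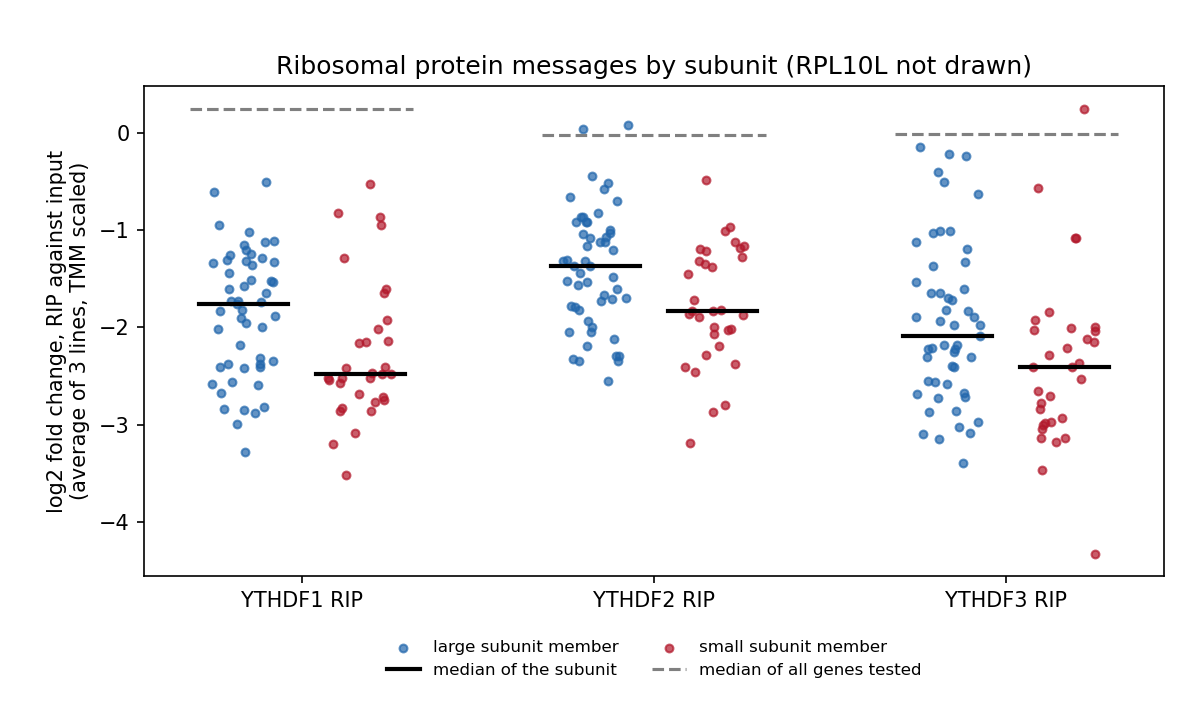
Each point is one member, by subunit and RIP, and the vertical axis is its log2 fold change against input averaged over the 3 lines; black bars are subunit medians and the dashed grey line is the median of all genes tested. The small subunit median lies under the large subunit median in each RIP (−2.48 against −1.76 in YTHDF1 RIP); RPL10L, with very few counts, is not drawn.

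The same order was seen library by library. Set against the mean input of its line, the small subunit median lay below the large in 27 of 27 RIP libraries, by 0.185 to 0.886 on the log2 scale. The mean difference was 0.594 ± 0.133 (SD, n = 9) in YTHDF1 RIP, 0.424 ± 0.119 in YTHDF2 RIP and 0.434 ± 0.178 in YTHDF3 RIP. In summed counts, inputs held 1.46 ± 0.0323 (SD, n = 9) large subunit reads for each small subunit read, with a range of 1.40 to 1.50. The ratio was 2.09 ± 0.306 in YTHDF1 RIP, 1.86 ± 0.173 in YTHDF2 RIP and 2.07 ± 0.187 in YTHDF3 RIP, and all 27 RIP libraries (1.73 to 2.66) lay above all 9 inputs. This ratio lies within a library, so it does not depend on how libraries are scaled, though a few abundant messages carry much of it.

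**Figure D2:**
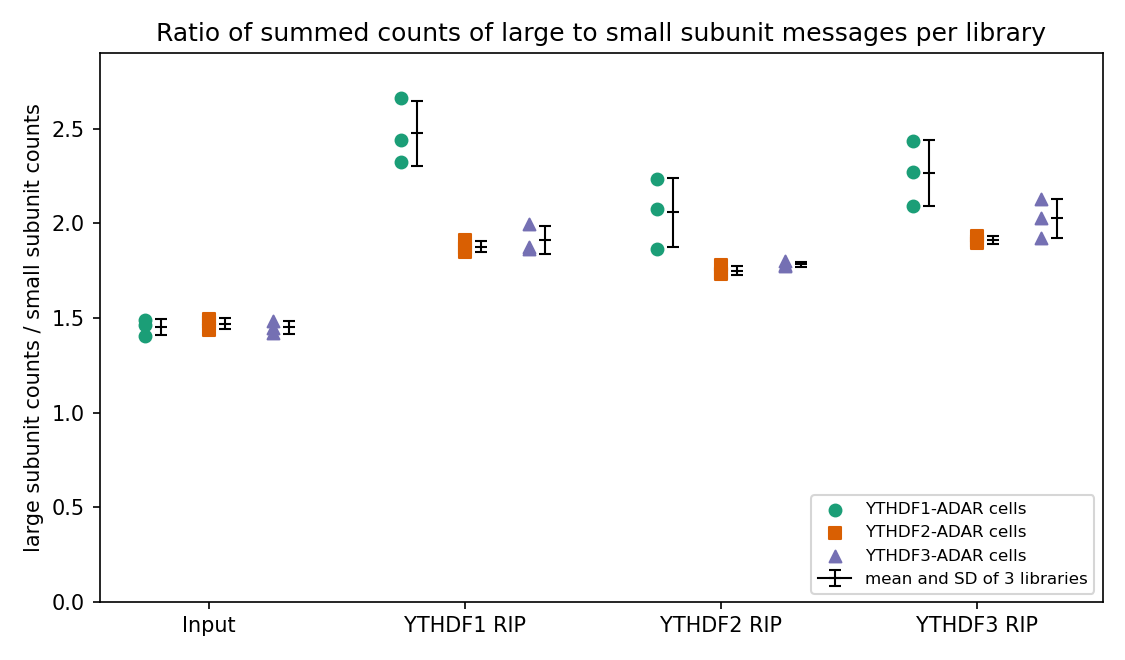
Points are libraries, placed by input or RIP and coloured by line, and the vertical axis is the summed counts of large subunit messages divided by those of small subunit messages; black marks are the mean and SD of 3 libraries. Inputs sit between 1.40 and 1.50 and every RIP library sits higher, highest in YTHDF1-ADAR cells.

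YTHDF1-ADAR cells had the highest ratio in each RIP. In YTHDF1 RIP it was 2.47 ± 0.171 (SD, n = 3) there, while YTHDF2-ADAR cells had 1.88 ± 0.0302 and YTHDF3-ADAR cells 1.91 ± 0.0730. In YTHDF2 RIP the same line had 2.06 ± 0.185 against 1.75 ± 0.0245 and 1.78 ± 0.0130, and in YTHDF3 RIP 2.27 ± 0.173 against 1.91 ± 0.0197 and 2.03 ± 0.104. The inputs of the lines were alike in this ratio, at 1.45, 1.47 and 1.45. By member medians the difference between the subunits in YTHDF1-, YTHDF2- and YTHDF3-ADAR cells was 0.72, 0.58 and 0.57 in YTHDF1 RIP, 0.49, 0.33 and 0.44 in YTHDF2 RIP, and 0.55, 0.24 and 0.38 in YTHDF3 RIP. With the paralogs left out this difference was 0.66, 0.63 and 0.58 in YTHDF1 RIP. It was then 0.60, 0.30 and 0.41 in YTHDF2 RIP, and 0.58, 0.19 and 0.36 in YTHDF3 RIP. The YTHDF1 RIP of YTHDF1-ADAR cells, which does not use the 6 libraries that stand apart, thus had the wider gap. By member medians without the paralogs the lines were close in that RIP.

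RPS21 had the lowest fold change of the members in YTHDF2 RIP and YTHDF3 RIP and, apart from RPL10L, in YTHDF1 RIP. RPS21, a small protein of the 40S subunit, was at 149, 220 and 259 CPM (lowest, median and highest of 9 libraries) in inputs, at 8.48, 17.7 and 28 in YTHDF1 RIP, at 9.63, 25.0 and 42.4 in YTHDF2 RIP, and at 6.10, 11.3 and 14.8 in YTHDF3 RIP. Every RIP library was far below every input. Its log2 fold change was −3.51 ± 0.14 (standard error; adjusted p = 2.76e-20), −3.19 ± 0.14 (1.08e-18) and −4.33 ± 0.15 (4.74e-22) in YTHDF1, YTHDF2 and YTHDF3 RIP by edgeR. Its YTHDF1 RIP value in YTHDF1-ADAR cells alone was −3.83.

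RPS13, a 40S protein, was at −3.20 ± 0.13, −2.87 ± 0.12 and −3.14 ± 0.12 on the log2 scale in the YTHDF1, YTHDF2 and YTHDF3 RIP. RPS12 went from an input median of 218 CPM to 34.1, 32.1 and 20.03, and its 3 log2 fold changes were −2.86, −2.79 and −3.47. RPS28 had −3.09, −2.29 and −3.17. For each of these 3 messages the RIP and input libraries did not overlap. RPS13, RPS12 and RPS28 were at −3.24, −3.09 and −3.04 in the YTHDF1 RIP of YTHDF1-ADAR cells alone.

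Among large subunit messages RPL39, which lines the exit tunnel of the ribosome, had the lowest fold change in YTHDF3 RIP and, apart from the thinly counted RPL10L, in YTHDF1 RIP. Its inputs were at 277, 529 and 611 CPM (lowest, median, highest), YTHDF1 RIP at 23.6, 59.4 and 78.8, YTHDF2 RIP at 33.3, 110 and 144, and YTHDF3 RIP at 22, 45.9 and 84.0. The log2 fold changes were −3.28 ± 0.17, −2.34 ± 0.16 and −3.40 ± 0.17. RPL35A (−2.85, −2.55 and −3.10) and RPL34 (−2.67, −2.34 and −3.14) were close to it in all 3, whereas RPL15 was at −2.99 ± 0.13 in YTHDF1 RIP, −1.37 ± 0.13 in YTHDF2 RIP and −1.70 ± 0.13 in YTHDF3 RIP. In the YTHDF1 RIP of YTHDF1-ADAR cells alone RPL39, RPL35A, RPL34 and RPL15 were at −3.54, −3.16, −3.31 and −2.79.

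The stalk of the large subunit, which recruits the factors that drive elongation, is built from RPLP0, RPLP1 and RPLP2. RPLP0, its base, was at a median of 1099 CPM in inputs and at 149, 462 and 225 in the YTHDF1, YTHDF2 and YTHDF3 RIP, with log2 fold changes of −2.82 ± 0.18, −1.49 ± 0.17 and −2.31 ± 0.17. RPLP1 had −2.88, −2.12 and −3.02, and RPLP2 −1.99, −1.71 and −2.40. All 3 were called lower in each RIP. YTHDF1-ADAR cells alone had −2.55 (RPLP0), −2.65 (RPLP1) and −1.94 (RPLP2) in YTHDF1 RIP.

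Several other members have known roles of their own. RPL10, added late in the maturation of the large subunit, had log2 fold changes of −2.42, −1.61 and −2.23. RPL30, a low-m6A control message in RIP work, had −2.60, −1.56 and −2.72, with input values of 92.0 to 213 CPM and no RIP library above 70.2. RPSA, a 40S protein also known as the laminin receptor precursor, had −2.52, −1.27 and −2.02. RPS27A, made as a fusion to ubiquitin, had −2.16, −2.03 and −2.41. RPS4X, a 40S protein with a gene on the X chromosome, had −2.14, −1.16 and −1.85. In the YTHDF1 RIP of YTHDF1-ADAR cells alone RPL10, RPL30, RPSA, RPS27A and RPS4X were at −2.68, −2.46, −2.21, −2.38 and −1.69.

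RPS6, the 40S protein phosphorylated by S6 kinase, fell less: its log2 fold change was −1.60 ± 0.19 in YTHDF1 RIP, −1.01 ± 0.19 in YTHDF2 RIP and −0.57 ± 0.19 in YTHDF3 RIP (adjusted p = 0.0126). In no single line was it called lower in YTHDF3 RIP, where its libraries ran from 379 to 866 CPM against 475 to 1344 in inputs and overlapped them. RPS2, a 40S protein near the mRNA channel at an input median of 2529 CPM, had −2.76 in YTHDF1 RIP and −2.21 in YTHDF3 RIP but −0.97 ± 0.16 in YTHDF2 RIP. RPS6 and RPS2 were at −1.36 and −2.41 in the YTHDF1 RIP of YTHDF1-ADAR cells alone. Rows of pseudogenes named after RPS2 held 37.5% as many reads as RPS2 itself, and reads that map to several places were counted at each.

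A few members stayed near their input level. RPS24, a 40S protein needed for processing of the small subunit rRNA, was at 191, 322 and 404 CPM (lowest, median, highest) in inputs, 141, 231 and 300 in YTHDF1 RIP, 109, 218 and 408 in YTHDF2 RIP, and 297, 342 and 556 in YTHDF3 RIP. The range of each RIP overlapped that of the inputs. Its log2 fold changes were −0.53 ± 0.18 (adjusted p = 0.0101), −0.48 ± 0.18 (0.0348) and 0.24 ± 0.18 (0.297). Its YTHDF1 RIP value in YTHDF1-ADAR cells alone was −0.30 (edgeR adjusted p = 0.455), which was not called. It has one of the longer start tracts among those shown above.

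RPL3, a 60S protein close to the peptidyl transferase centre, was at 1051, 1562 and 2119 CPM in inputs and at 805, 1720 and 2486 in YTHDF2 RIP. The YTHDF2 RIP difference was 0.07 ± 0.12 (adjusted p = 0.686), while YTHDF1 RIP gave −1.11 ± 0.12 and YTHDF3 RIP −0.41 ± 0.12 (0.00612). RPL4 and RPL5, a tunnel protein and a partner of 5S rRNA, passed edgeR's test in the YTHDF1 RIP (−1.36 and −1.02) and the YTHDF2 RIP (−0.45 ± 0.15, adjusted p = 0.0156, and −0.66 ± 0.21, adjusted p = 0.0106). In YTHDF3 RIP they were at −0.24 ± 0.15 (adjusted p = 0.196) and −0.15 ± 0.21 (0.593), and the sign of both turned positive when library totals or mitochondrial mRNAs set the scale. In the YTHDF1 RIP of YTHDF1-ADAR cells alone RPL3 was at −0.68 (adjusted p = 0.0076), RPL4 at −0.51 (0.101) and RPL5 at −0.60 (0.175), so the calls of RPL4 and RPL5 ended.

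In all, 6 members missed the call in some average: RPL14, RPL3, RPL4, RPL5, RPL7L1 and RPS24. RPL14 stood at −0.51 ± 0.21 in YTHDF2 RIP, with an adjusted p of 0.0513. In YTHDF1 RIP, where all were called, the 4 smallest falls were those of RPL41 (−0.50 ± 0.16), RPS24, RPL3L and RPS27. RPL23A was at −0.95 ± 0.24 there and at −1.13 in YTHDF2 RIP. In YTHDF1-ADAR cells alone RPL41 (0.20), RPL3L (−0.49, edgeR adjusted p = 0.196) and RPL23A (−0.58, 0.255) were not called lower in YTHDF1 RIP.

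**Figure D3:**
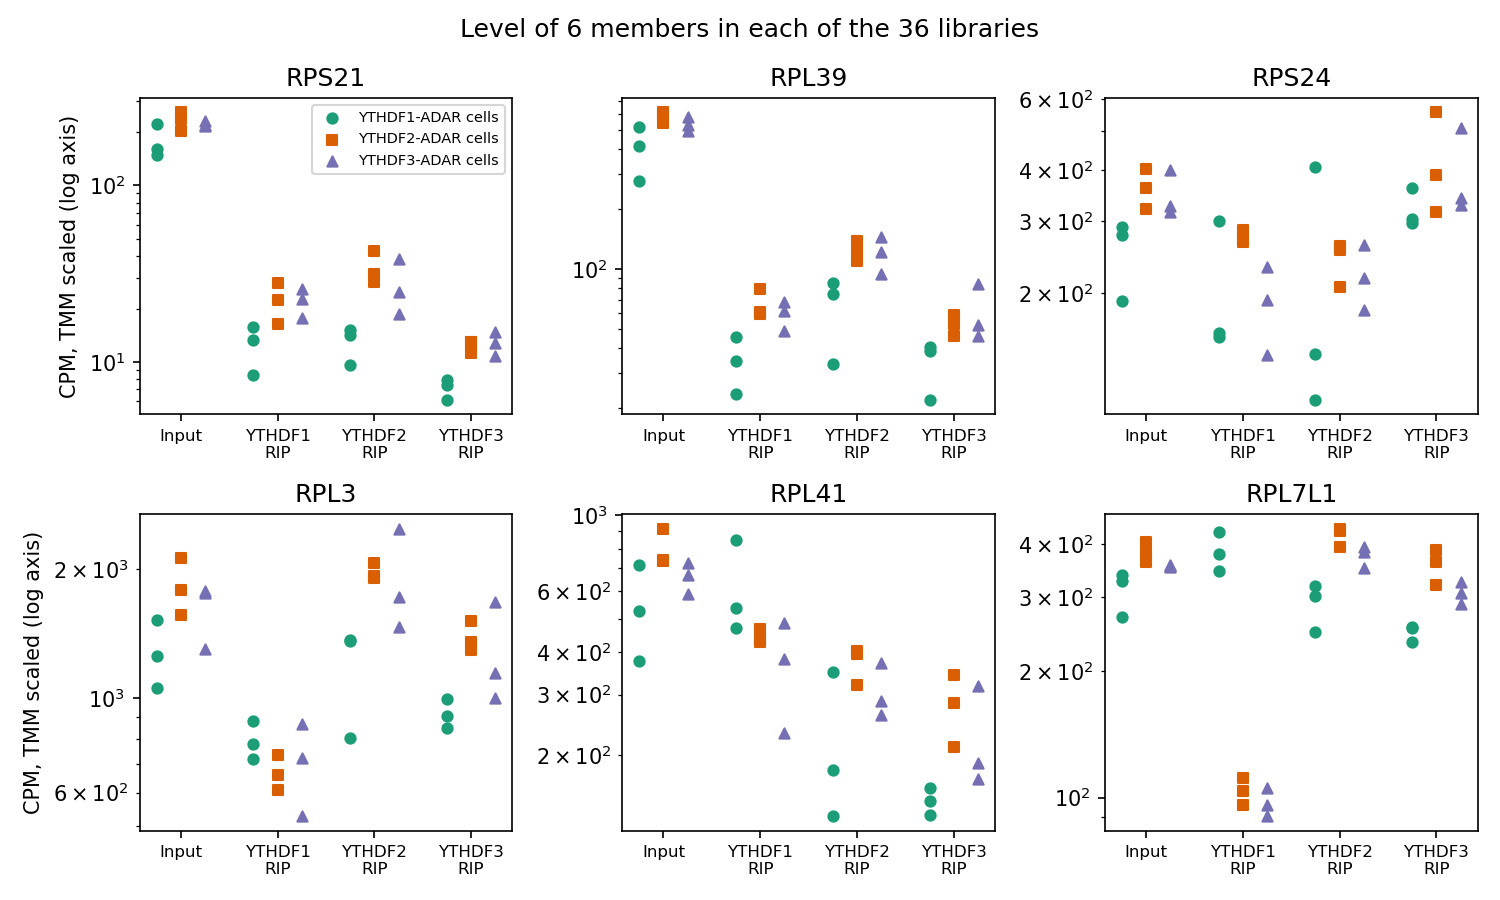
Each panel is one member, each point one of the 36 libraries, and the vertical axis is CPM after TMM scaling on a log axis; groups are input and the 3 RIPs, and colours are lines. RPS21 and RPL39 fall in all RIP libraries, RPS24 overlaps its inputs in all 3 RIPs and RPL3 in YTHDF2 RIP and YTHDF3 RIP, and RPL7L1 separates by line in YTHDF1 RIP.

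Line by line, the fall was found in each of the 9 RIP and line pairs, and 64 of 85 members were called lower in all 9. The share of all genes called lower in all 9 is not given here, and the RIPs of a line share its inputs. In YTHDF1 RIP 74 members were lower in YTHDF1-ADAR cells (28.8% of all genes were), 82 in YTHDF2-ADAR cells (33.4%) and 85 in YTHDF3-ADAR cells (32.4%). In YTHDF2 RIP the counts were 74, 76 and 73, against 15.5%, 10.1% and 9.93% of all genes, and in YTHDF3 RIP 77 in each line, against 20.1%, 16.9% and 16.1%. With mitochondrial mRNA scaling the YTHDF2 RIP counts were 34 in YTHDF1-ADAR and 19 in YTHDF2-ADAR cells, where 1.15% and 0.54% of all genes were lower. RPL14, RPL22, RPL3, RPL4, RPL5, RPL7L1 and RPS24 were lower in no line in YTHDF2 RIP, and RPL22, RPL3, RPL4, RPL5, RPL6, RPS24 and RPS6 in no line in YTHDF3 RIP. By library, RIP values lay below all inputs of the same line for 72, 85 and 85 members in YTHDF1 RIP, against 28.2%, 37.2% and 35.8% of all genes. The counts were 70, 83 and 83 in YTHDF2 RIP (18.6%, 19.5% and 19.8% of all genes), and 78, 82 and 80 in YTHDF3 RIP (23.8%, 21.8% and 22.4%).

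The YTHDF1 RIP change of some members differed between the lines. A test of the interaction of RIP and line called 12 of 85 members (14.1%), a share below the 63.7% of all genes. The count was 19 and 20 without YTHDF1 RIP replicate 1 or 2 of YTHDF1-ADAR cells and 20 without its input replicate 3. Of the 12, 11 belong to the large subunit, and the other is RPS27L. The 7 members with a higher fold change in YTHDF1-ADAR cells than in the mean of the other lines were RPL7L1, RPL36AL, RPL29, RPL4, RPL41, RPL13A and RPL13, and the 5 with a lower one were RPL22L1, RPS27L, RPL34, RPL37A and RPL37. Between YTHDF2-ADAR and YTHDF3-ADAR cells these 12 differed by at most 0.21 on the log2 scale. All YTHDF1 RIP libraries of those 2 lines are among the 6 that stand apart, so line and that difference between libraries cannot be told apart here.

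RPL7L1, a paralog of RPL7 linked to ribosome assembly, had the smallest p of the 12. In YTHDF1-ADAR cells its 3 inputs were at 269, 338 and 327 CPM and its YTHDF1 RIP libraries at 428, 379 and 345, all above the inputs. In YTHDF2-ADAR cells it went from 364, 381 and 406 to 96.2, 104 and 111, and in YTHDF3-ADAR cells from 353, 357 and 355 to 96.1, 106 and 90.3. The log2 fold changes were 0.30 ± 0.13 (adjusted p = 0.0496), −1.89 and −1.87. It was the one member called higher in any of the 9 pairs, where 20.6% of all genes were called higher, and the call ended when YTHDF1 RIP replicate 1 or 2 or input replicate 1 of that line was left out. In YTHDF2 RIP and YTHDF3 RIP it stood near its input, at 0.04 ± 0.07 (adjusted p = 0.759) and −0.21 ± 0.07 (0.0158). RPL7 itself had −1.64, −0.87 and −1.01.

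RPL29, a heparin-binding protein of the large subunit, fell from 385, 486 and 562 CPM to 249, 232 and 382 in YTHDF1-ADAR cells, a log2 fold change of −0.73, and had −2.47 and −2.45 in the other lines. RPL36AL had −0.47, −2.46 and −2.29 in the YTHDF1-, YTHDF2- and YTHDF3-ADAR cells. RPL4 had −0.51, −1.72 and −1.85. RPL41, whose product is among the shortest proteins of the cell, was at 0.20 in YTHDF1-ADAR cells and at −0.85 and −0.86 in the others. Rows of RPL41 pseudogenes held 29.3% as many reads as RPL41.

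In the opposite direction, RPL22L1 was at −2.07 in YTHDF1-ADAR cells and at −0.89 and −0.81 in the other lines. Its level was low there: 2.6, 1.8 and 3.5 CPM in the YTHDF1 RIP against 9.5, 10.6 and 13.7 in input. RPS27L had −2.69, −1.65 and −1.44, and RPL34 −3.31, −2.25 and −2.46.

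**Figure D4:**
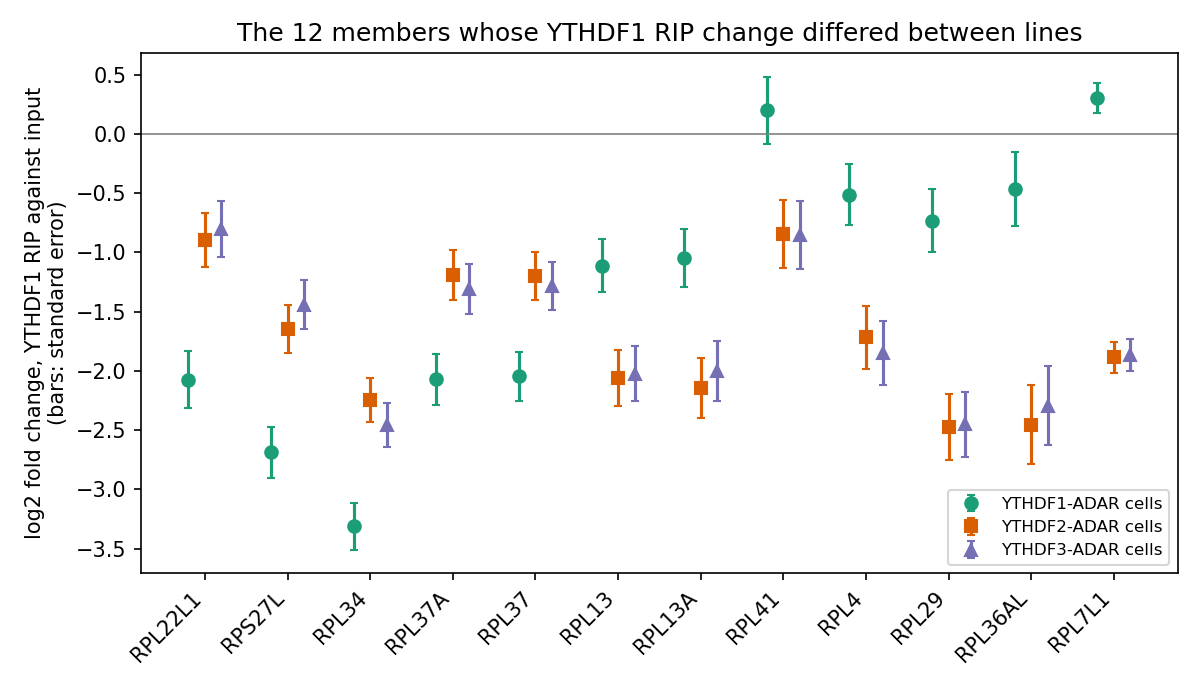
The 12 members called in the interaction of YTHDF1 RIP and line are on the horizontal axis, and the vertical axis is the log2 fold change against input in each line with its standard error. Values of YTHDF2-ADAR and YTHDF3-ADAR cells lie within 0.21 of each other, and those of YTHDF1-ADAR cells lie above them for 7 members and below for 5.

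YTHDF1-ADAR cells were also set against the mean of the other lines in YTHDF1 RIP, as a single difference. By this, 10 members were higher and 6 lower, while 26.9% and 42.4% of all genes were. The median difference was 0.25 for large and 0.05 for small subunit members and −0.45 for all genes, so higher and lower depend on the scale. The largest differences of the called members were those of RPL7L1 (2.18 ± 0.16), RPL36AL (1.91 ± 0.39) and RPL29 (1.73 ± 0.32). Leaving out YTHDF1-ADAR input replicate 3 moved the counts to 37 and 0, and each of these counts moved by over 1.5 times for 11 of the 18 libraries left out in turn. In YTHDF2 RIP the interaction called 0 members and 0% of all genes, and in YTHDF3 RIP 0 members and 0.00628% of all genes (edgeR); at an unadjusted p under 0.05 there were 4 and 1 members, and DESeq2 called 0 and 0. The smallest p-values were those of RPS21, RPLP1 and RPS10 in YTHDF2 RIP (adjusted p = 1 each) and of RPL22L1 in YTHDF3 RIP (0.971).

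Paralogs did not follow their partner in every RIP. RPL22 and RPL22L1, a pair known to regulate each other, were at −1.28 ± 0.15 and −1.26 ± 0.13 in YTHDF1 RIP, but at −0.58 ± 0.15 and −2.19 ± 0.14 in YTHDF2 RIP and −0.51 ± 0.15 and −2.55 ± 0.14 in YTHDF3 RIP. Both have a start tract. RPS27 and RPS27L, a p53-responsive paralog, were at −0.82 and −1.93 in YTHDF1 RIP, −1.45 and −1.83 in YTHDF2 RIP, and −2.15 and −2.83 in YTHDF3 RIP. In the YTHDF1 RIP of YTHDF1-ADAR cells alone RPL22 and RPL22L1 were at −1.03 and −2.07, and RPS27 and RPS27L at −0.92 and −2.69. No test of these pair differences was made.

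RPL36A and RPL36AL were closer to each other, at −1.25 and −1.74, −1.53 and −1.37, and −1.72 and −1.94. RPL26 and RPL26L1 had −2.84 and −2.38, −2.30 and −1.67, and −2.09 and −2.21. RPL39L, low at 3.64 to 10.1 CPM in inputs, had −1.90, −0.996 and −2.25, each less of a fall than RPL39. RPL3L, a muscle paralog at 0.957 to 1.68 CPM in inputs, had −0.60, −0.92 and −1.03. In the YTHDF1 RIP of YTHDF1-ADAR cells alone RPL36A and RPL36AL were at −1.32 and −0.47, RPL26 and RPL26L1 at −2.59 and −2.26, and RPL39L at −1.57. Paralogs with similar sequence share reads that map to several places.

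RPL10L, a paralog of RPL10 known from testis, was near the limit of counting. YTHDF1 RIP of YTHDF2-ADAR cells held 0, 0 and 0 of its reads among 42.3 M counts, while the 3 inputs summed to 67 reads. With 3 reads over the group as the floor, it was at least 10.2-fold lower in that RIP. YTHDF1 RIP of YTHDF3-ADAR cells held 1 read against 54 in input, and that of YTHDF1-ADAR cells 5 against 34.

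The RIPs were also set against each other. By TMM, YTHDF2 RIP minus YTHDF1 RIP gave 7 members lower and 51 higher, against 45.1% and 30.5% of all genes. YTHDF3 RIP minus YTHDF1 RIP gave 36 lower and 24 higher, against 46.4% and 28.7%. YTHDF3 RIP minus YTHDF2 RIP gave 59 lower and 2 higher, against 19.7% and 17% of all genes. Scaled to mitochondrial mRNAs the splits were 0 lower and 84 higher, 0 and 81, and 21 and 4, where all genes split 8.03% and 59.1%, 8.19% and 63.9%, and 3.13% and 8.98%, so the direction of the comparisons with YTHDF1 RIP rests on the scale. The mitochondrial reference is not neutral here, at 4.30% of counts in YTHDF1 RIP against 1.43% in YTHDF2 RIP and 1.29% in YTHDF3 RIP. Leaving out single libraries moved the lower count to between 2 and 11 for YTHDF2 minus YTHDF1 RIP, by over 1.5 times for 10 of 18 libraries, and to between 14 and 35 for YTHDF3 minus YTHDF1 RIP, by over 1.5 times for 11 of 18. The higher count of YTHDF3 minus YTHDF2 RIP reached 8. In YTHDF1-ADAR cells alone, with the 6 libraries left out of the fit, YTHDF2 minus YTHDF1 RIP gave 5 lower and 21 higher (21.5% and 23% of all genes) and YTHDF3 minus YTHDF1 RIP 15 lower and 12 higher (20.8% and 25.8%).

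Differences between members within these comparisons do not depend on the scale. Between YTHDF2 and YTHDF1 RIP, RPS2 (1.80 ± 0.17) was highest apart from the thinly counted RPL10L (2.695 ± 0.861), and RPL22L1 (−0.93 ± 0.14) and RPL41 (−0.66 ± 0.17) were lowest. Between YTHDF3 and YTHDF1 RIP the ends were RPL10L (2.89 ± 0.81) and RPL15 (1.30 ± 0.13) against RPS27 (−1.33 ± 0.18) and RPL22L1 (−1.29 ± 0.14). With mitochondrial scaling RPL22L1, RPL41 and RPS27 turned positive in these comparisons. In YTHDF1-ADAR cells alone, without the 6 libraries, RPS2 was at 1.17, RPL22L1 at 0.10 and RPL41 at −1.43 between YTHDF2 and YTHDF1 RIP, and RPL15 at 1.09, RPS27 at −0.89 and RPL22L1 at 0.06 between YTHDF3 and YTHDF1 RIP; RPL10L, at 0.17 and 0.57, was called in neither. Between YTHDF3 and YTHDF2 RIP, RPL13 (−1.27 ± 0.13) was among the lowest and RPL17 (0.81 ± 0.15) and RPS24 (0.73 ± 0.18) were highest. RPL17, a protein at the tunnel exit, was at medians of 85.2, 91.7 and 142 CPM in the YTHDF1, YTHDF2 and YTHDF3 RIP.

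RPL19 was among the members that varied least across the 3 RIPs, at −1.20, −1.08 and −1.37. It was picked after its values were seen.

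Between the inputs of the lines both subunits shifted by nearly the same amount. For YTHDF1-ADAR minus YTHDF2-ADAR the median differences were −0.48 and −0.48 (large and small), and 84 of 85 members were negative. For YTHDF1-ADAR minus YTHDF3-ADAR they were −0.42 and −0.42, and 81 were negative. YTHDF2-ADAR minus YTHDF3-ADAR gave 0.07 and 0.06. The medians of all genes were 0.08, 0.08 and 0 in these comparisons. The share of all genes with a negative difference is not given here. In the first, 5 members were lower and 0 higher, against 4.3% and 13.3% of all genes; in the second 4 were lower and 1 higher, against 5.1% and 11.3%; for YTHDF2-ADAR minus YTHDF3-ADAR 0 were lower and 2 higher, against 2.15% and 1.27%. Where a count was 0, edgeR gave 36 and 5 members in either direction at an unadjusted p under 0.05, in the comparisons of YTHDF2-ADAR cells with YTHDF1-ADAR and YTHDF3-ADAR cells, and DESeq2 also called 0 members in those directions. RPL11, which with RPL5 and 5S rRNA binds MDM2, was lower in YTHDF1-ADAR cells in both comparisons (−0.81 ± 0.27, adjusted p = 0.0339, and −0.998 ± 0.268, adjusted p = 0.0109; edgeR). RPL13A was lower in the first (−0.70 ± 0.24, edgeR adjusted p = 0.0414) and RPS13 in the second (−0.89 ± 0.20, adjusted p = 0.00246).

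RPS27L was higher in YTHDF1-ADAR (0.64 ± 0.19, edgeR adjusted p = 0.0211) and YTHDF2-ADAR cells (1.07 ± 0.19, adjusted p = 4.02e-04) than in YTHDF3-ADAR cells, and RPL22L1 higher in YTHDF2-ADAR than in YTHDF3-ADAR cells (0.80 ± 0.22, adjusted p = 0.0350). The lower counts for YTHDF1-ADAR cells turned on single libraries: without input replicate 1 of that line they were 0 and 1, and without its replicate 3 they were 50 and 32. The first count moved by over 1.5 times for each of the 6 libraries left out in turn, and DESeq2 called 19 and 14. With mitochondrial scaling no member was called between inputs (0), which ended the calls of RPL11, RPL13A, RPS13, RPS27L and RPL22L1, and with the replicate number as a block RPL13A was not called (adjusted p = 0.0590). The mitochondrial mRNAs themselves ran from 0.663% to 2.58% of counts over the inputs.

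Genes tied to the ribosome were read for comparison. FAU, which encodes a fusion of a ubiquitin-like protein to a ribosomal protein, and RACK1, a 40S scaffold protein, were lower in each RIP. FAU had log2 fold changes of −2.38, −1.70 and −2.27, and RACK1 −2.13, −1.31 and −1.75, all inside the range of the members. Of 19 other TOP messages, mostly translation factors, 19 were lower in YTHDF1 RIP (median −1.53), 11 lower and 1 higher in YTHDF2 RIP (−0.33), and 14 lower in YTHDF3 RIP (−0.93). EEF1A1, the elongation factor that brings tRNA, was at −1.79 in YTHDF1 RIP and −0.11 in YTHDF2 RIP (adjusted p = 0.464), and EEF2, the translocase, at −1.23 and 0.21 (0.192). HNRNPA1, a splicing factor, was higher in YTHDF2 RIP (0.79).

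Of 11 genes that control TOP messages, 7 were lower and 2 higher in YTHDF1 RIP, 3 lower and 5 higher in YTHDF2 RIP, and 3 lower and 6 higher in YTHDF3 RIP. LARP1 was at −0.19, 0.54 and 0.61, MTOR at −0.03, 0.57 and 0.75, and TSC1 at 0.75, 0.50 and 0.91. The shares of all genes called lower were 32.4%, 21.8% and 26.1% and called higher 44.7%, 17.9% and 21.7%, which also stand beside the counts of the next genes. Of 39 ribosome biogenesis genes, 26 were lower and 4 higher in YTHDF1 RIP (median −0.81), 11 lower and 16 higher in YTHDF2 RIP (0.08), and 17 lower and 12 higher in YTHDF3 RIP (−0.19).

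Mitochondrial ribosomal protein messages fell too. Of 78, 77 were lower in YTHDF1 RIP (median −1.43), 63 in YTHDF2 RIP (−0.80) and 75 in YTHDF3 RIP (−1.37). Proteasome subunits, another set of housekeeping messages, had 33, 19 and 28 of 35 tested lower, with medians of −1.35, −0.37 and −0.88.

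Features that the name rule did not use were set beside the fold changes. Members with a start tract had medians of −2.02, −1.73 and −2.31 in the YTHDF1, YTHDF2 and YTHDF3 RIP, and members without one −1.96, −1.52 and −2.13. Some members counted as without one have a run just past the annotated start, so these medians do not cleanly separate messages by TOP tract. The 24 members with a snoRNA gene over one of their exons, where snoRNA reads can count for the host, had −1.97, −1.24 and −2.02 against −2.14, −1.72 and −2.31 for the other 61. Across the 85 genes, which share the libraries and are not independent, Spearman's rho of the fold change with gene model length was 0.08, 0.26 and 0.23, and with the mean input count −0.01, 0.38 and 0.23.

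Editing was read as a second record, since the fusion can edit RNA that it meets in the living cell. No group without a fusion was compared, so editing by the fusion cannot be told apart from other edits or variants here. The editing level is the mean percent of reads edited per site of a gene; replicates were pooled by the authors, so the values have no SD and no test was added. The authors' deposited table for YTHDF1-ADAR cells lists 26 members among 7829 genes, 18 large and 8 small subunit, with 151 sites between them. The authors' deposited tables for YTHDF2-ADAR and YTHDF3-ADAR cells list 20 members of 2402 genes (49 sites) and 20 of 2944 (64 sites). In all 36 members are in some authors' deposited table, 11 in all 3 tables, and 49 in none. The coverage of the sites is unknown, so absence from a table does not show that a message was not edited.

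Editing levels of members in YTHDF1-ADAR cells were set beside those of all listed genes. The authors' deposited table gives a median of 2.40% for members and 2.50% for all listed genes in input. In YTHDF1 RIP the medians from the authors' deposited table were 3.23% and 3.71%, in YTHDF2 RIP 3.88% and 3.39%, and in YTHDF3 RIP 3.15% and 3.18%. The median number of sites in the authors' deposited table was 2 in members and 6 in all listed genes.

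RPL28, a 60S protein, had the smallest p. The authors' deposited table lists 33 sites with levels of 1.03% in input, 5.32% in YTHDF1 RIP, 2.85% in YTHDF2 RIP and 2.96% in YTHDF3 RIP, at adjusted p of 3.97e-19, 7.31e-05 and 4.11e-05. RPL7L1 has the most sites, 37, and in the authors' deposited table its levels of 2.56%, 2.84%, 3.72% and 2.80% were not called different. For RPL27A, with 17 sites, the authors' deposited table gives 2.35% in input and 4.98% in YTHDF1 RIP (adjusted p = 0.0461). For RPL13, with 12 sites, the authors' deposited table gives 2.699% in input, 4.39% in YTHDF1 RIP and 4.04% in YTHDF2 RIP, and for RPL37, with 13, it gives 2.11%, 3.03% and 4.31%.

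RPS29 had the highest of the called levels in that RIP of this line: the authors' deposited table gives 5.98% in input and 12.9% in YTHDF1 RIP over 5 sites. By the authors' deposited table, 6 members were called higher in YTHDF1 RIP (RPL13, RPL13A, RPL27A, RPL28, RPL41 and RPS29), where 7.93% of listed genes were. The authors' deposited table calls 3 in YTHDF2 RIP (RPL13, RPL28 and RPL37; 1.61% of genes) and 1 in YTHDF3 RIP (RPL28; 1.01%). RPL13, RPL13A and RPL41 are also among the 7 members whose YTHDF1 RIP fold change was higher in this line. RPL7L1, with the largest difference of those 7, was not called in editing. The share of all genes in both lists is not given here, and a link between editing and recovery was not tested. RPSA stood at 12.2% in input and 20% in YTHDF1 RIP in the authors' deposited table, which was not called.

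**Figure D5:**
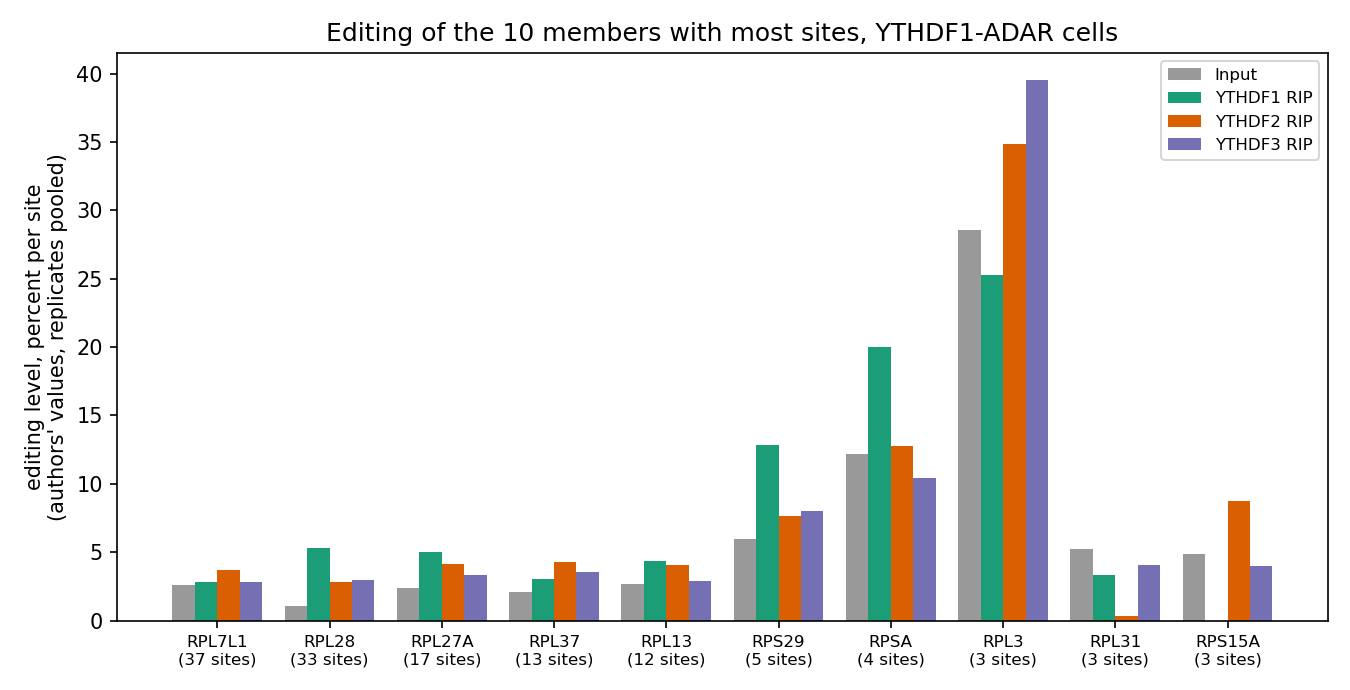
Bars give the editing level in percent per site in input and the 3 RIPs of YTHDF1-ADAR cells for the 10 members with the most sites, from the authors' deposited table with replicates pooled, so there are no error bars. RPL28 rises from 1.03% to 5.32% in YTHDF1 RIP, while RPL3, on 3 sites, stands highest in all arms.

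RPL3 was edited most among these 10. In YTHDF1-ADAR cells the authors' deposited table gives 28.6% in input and 25.3%, 34.9% and 39.5% in the RIPs over 3 sites. In YTHDF2-ADAR cells the authors' deposited table gives 16.7% in input and 92.0% in YTHDF1 RIP over 2 sites (adjusted p = 1.06e-08), and in YTHDF3-ADAR cells 20.6% and 51.0% over 3 sites (0.00551). Both of these rises come from YTHDF1 RIP libraries that stand apart.

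In YTHDF2-ADAR cells RPL3 was the single member called higher in YTHDF1 RIP in the authors' deposited table, where 2% of listed genes were. In YTHDF3-ADAR cells the authors' deposited table calls 4 higher in YTHDF1 RIP (RPL3, RPL41, RPL6 and RPS14; 2.11% of genes) and RPS13 lower (0.815% of genes). Levels of the latter were small except for RPL3 and RPS13: the authors' deposited table gives RPL6 0.115% in input and 1.07% in RIP, RPS14 0.110% and 0.758%, and RPS13 10.5% and 5.58%.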

How the data were processed

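RNA sequencing libraries of 12 groups of 3 were grouped by their labels. Per the submitters' processing notes the authors used STAR 2.7.7, featureCounts 2.0.1 and DESeq2 with GRCh38/hg38; per the file headers, counts per gene ignore strand and keep multi-mapping reads and reads over more than one gene, so antisense partners, snoRNAs in exons and pseudogenes share reads with members. The authors' deposited comparison table gives a mean signal, log2 fold changes and p-values, used for symbols (40818 genes) and as a cross-check. The authors' deposited editing tables give sites, a score that acts as sites times edited fraction, a natural log odds ratio and p-values; the caller is not given in the sources used here. The editing level is 100 times score over sites.

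Counts of genes that passed filterByExpr were fitted in one model of 12 groups with edgeR 4.0.16 (R 4.3.3; TMM, glmQLFit with robust estimates, glmQLFTest), and p-values were adjusted by Benjamini-Hochberg over all genes tested with a limit of 0.05; the fit was tested on simulated data. Standard errors come from the F statistic. Alternatives were other scalings, no filter, DESeq2 1.42.0, a replicate block, pooling with pseudogenes, and leaving out libraries. Per RIP the 3 lowest and 3 highest members of each subunit, the 3 smallest interaction p, the 2 lowest and 2 highest called members of other comparisons, members of known role, paralog pairs and the 10 members with most editing sites were named. A few genes that this rule names are not reported here. Members and lists were chosen with earlier results of these data known. Over 54 pairs with the same replicate number the correlation of deviations ran from −0.395 to 0.418, with 9 over 0.1, so the numbers were not taken to pair libraries in general. YTHDF2 RIP and YTHDF3 RIP of YTHDF1-ADAR cells correlated in all 3 pairs (0.138 to 0.418). Those of YTHDF2-ADAR cells were also positive in all 3 (0.0653 to 0.229), but those of YTHDF3-ADAR cells ran from −0.338 to 0.0154. No column was left out (0), and 0 pairs of libraries were identical.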

Additional observations from a re-analysis of the deposited data

Results flagged for a closer look

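The YTHDF1 RIP change of 12 members differed between the lines by the interaction test (edgeR, Benjamini-Hochberg over all genes, 3 libraries in each group). The adjusted p was 7.36e-13 for RPL7L1, 1.07e-04 for RPL29, 4.07e-04 for RPL36AL, 5.76e-04 for RPS27L, 0.00106 for RPL34, 0.00149 for RPL22L1 and 0.00298 for RPL4. It was 0.0101 for RPL13A, 0.0131 for RPL13, 0.0149 for RPL37, 0.0187 for RPL37A and 0.0314 for RPL41. The difference of YTHDF1-ADAR cells from the mean of the other lines was positive for RPL7L1 (2.18 on the log2 scale), RPL36AL (1.91), RPL29 (1.73), RPL4 (1.27), RPL41 (1.05), RPL13A (1.03) and RPL13 (0.93). It was negative for RPL22L1 (−1.22), RPS27L (−1.14), RPL34 (−0.96), RPL37A (−0.82) and RPL37 (−0.80). Over all genes the median of this difference was −0.45. In YTHDF1-ADAR cells snoRNA genes took 0.133% of YTHDF1 RIP counts on average, against 1.86% over the 6 libraries of this RIP from YTHDF2-ADAR and YTHDF3-ADAR cells; the part of that difference in these results was not tested.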

How the results depend on the processing

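The members called lower in each RIP average stayed within 1.5 times of their number under all alternatives run. Scaling to mitochondrial mRNAs changed most: in YTHDF2 RIP 34 members were lower in YTHDF1-ADAR and 19 in YTHDF2-ADAR cells, and RIP against RIP gave 0 lower and 84 higher (YTHDF2 minus YTHDF1), 0 and 81 (YTHDF3 minus YTHDF1) and 21 and 4 (YTHDF3 minus YTHDF2). It gave subunit medians (large, small) of −2.92 and −3.65 in YTHDF1 RIP and −1.60 and −1.86 in YTHDF3 RIP, 4 members in the YTHDF1 RIP interaction, 6 higher and 0 lower for YTHDF1-ADAR cells against the others, 0 in every input comparison and 0 higher in the YTHDF1 RIP of YTHDF1-ADAR cells. Under it the sign turned for RPL13A between inputs (0.15), for RPL22 (0.016), RPL3 (0.077), RPL4 (0.24), RPL5 (0.39) and RPL7L1 (0.32) in YTHDF3 RIP, for RPL22L1 (0.46) and RPL41 (0.69) in YTHDF2 minus YTHDF1 RIP, and for RPS27 (0.25) and RPL22L1 (0.33) in YTHDF3 minus YTHDF1 RIP. Its median over all genes was −0.91, 0.21 and 0.46 in the RIPs.

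Library totals gave medians of −1.41 and −2.14 in YTHDF1 RIP and −1.82 and −2.14 in YTHDF3 RIP, 22 interaction members, 20 lower for YTHDF1-ADAR cells against the others, and in YTHDF3 RIP 0.032 for RPL4, 0.13 for RPL5 and 0.056 for RPL7L1. Summed counts gave large minus small differences of 0.51 in YTHDF1 RIP and 0.50 in YTHDF3 RIP. For YTHDF2 minus YTHDF1 RIP, 12 members were lower with DESeq2 size factors, 12 with library totals and 11 with the DESeq2 test. For YTHDF3 minus YTHDF2 RIP, 5 were higher with each of these and 4 with no filter. Between inputs of YTHDF1-ADAR and YTHDF2-ADAR cells 11, 2 and 19 were lower with DESeq2 size factors, library totals and the DESeq2 test, and 54 with no filter; against YTHDF3-ADAR cells 10 (size factors), 14 (DESeq2 test) and 26 (no filter). Library totals gave 1 higher in YTHDF2-ADAR than YTHDF3-ADAR input. With no filter the interaction had 23 members and YTHDF1-ADAR cells against the others 23 higher, and RPL7L1 was not called higher (0), as when pooled with pseudogenes (0).

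With the replicate block, 0 members were higher in the YTHDF1 RIP of YTHDF1-ADAR cells; it changed no other count by over 1.5 times. It gave 58 lower and 3 higher in YTHDF3 minus YTHDF2 RIP, and 4 lower in YTHDF1-ADAR input against each other line.

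YTHDF1-ADAR cells alone gave 0.20 for RPL41 and 0.30 for RPL7L1 in YTHDF1 RIP. Alternatives chosen after seeing the data left out libraries that stood apart. In YTHDF1-ADAR cells alone without the 6 YTHDF1 RIP libraries, 21 members were higher in YTHDF2 minus YTHDF1 RIP, 15 were lower and 12 higher in YTHDF3 minus YTHDF1 RIP, and RPL22L1 was at 0.10 and 0.062 in these. Without the 6 YTHDF1 RIP libraries, inputs gave 24, 10, 0 (higher) and 1 (higher), and YTHDF3 minus YTHDF2 RIP 5 higher. Without YTHDF1-ADAR input replicate 1 and its YTHDF2 RIP replicate 3, inputs gave 0 and 1 lower, the large subunit median in YTHDF1 RIP was −2.07, YTHDF2 minus YTHDF1 RIP had 2 lower, YTHDF1-ADAR cells against the others 16 higher, the YTHDF1 RIP of YTHDF1-ADAR cells 0 higher, and RPL7L1 was at −0.000678 in YTHDF2 RIP.

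Leaving out single libraries gave ranges of −2.07 to −1.73 (large) and −2.79 to −2.46 (small) for the YTHDF1 RIP medians and −2.16 to −1.85 (large) in YTHDF3 RIP, and of 11 to 20 interaction members. Lower counts ran from 0 to 50 and 1 to 32 between inputs of YTHDF1-ADAR cells and the others, 2 to 11 (YTHDF2 minus YTHDF1 RIP), 14 to 35 (YTHDF3 minus YTHDF1 RIP) and 0 to 6 (YTHDF1-ADAR cells against the others). Higher counts ran from 0 to 1 and 1 to 2 between inputs, 0 to 1 in the YTHDF1 RIP of YTHDF1-ADAR cells, 2 to 8 (YTHDF3 minus YTHDF2 RIP) and 9 to 37 (YTHDF1-ADAR cells against the others). RPL3 in YTHDF2 RIP ran from −0.0070 to 0.21, RPL5 in YTHDF3 RIP from −0.24 to 0.061 and RPL7L1 in YTHDF2 RIP from −0.039 to 0.14. The cause of these changes was not tested. Depth limits RPL10L most among the members named, and RPL3L, with a mean of 33.6 reads over the inputs, was thinly counted too. Editing tables restricted to genes with a value in every arm held 26, 17 and 18 members.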

Other observations

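The authors' deposited comparison table gives median log2 fold changes of the members of −2.27, −1.41 and −2.11 in YTHDF1, YTHDF2 and YTHDF3 RIP, with 85, 79 and 78 members called lower in the authors' deposited table.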
